A study of Mus musculus with 6 samples.

Results

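MHC class II genes were examined in CD11b+ cells from the mouse cortex as a set of 10 genes, chosen by symbol for their roles in class II presentation. They comprise the chains of the classical molecules I-A and I-E (H2-Aa, H2-Ab1 and H2-Eb1), the invariant chain (Cd74), the transactivator (Ciita), the peptide editor H2-DM (H2-DMa, H2-DMb1 and H2-DMb2) and its inhibitor H2-O (H2-Oa and H2-Ob). All 10 were among the 16516 genes of the deposited table, and all 10 passed the filter on low counts, as did 13151 genes in all. The cells came from male C57BL6/J mice aged 8 to 10 weeks that received 1 intraperitoneal injection per day on 4 consecutive days. NS mice were given normal saline and 4LPS mice lipopolysaccharide (LPS) of Escherichia coli 055:B5, a bacterial cell wall component, at 500 µg/kg. The cortices were taken 7 days after the first injection, and cells retained by magnetic beads against CD11b, an integrin chain of myeloid and natural killer cells, were used for RNA sequencing. The 3 samples per group each held RNA of 2 mice. The labels name no transgene or deletion in either group.

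MHC class II molecules show peptides from the endosome to CD4 T cells. An alpha and a beta chain assemble with the invariant chain in the endoplasmic reticulum, and proteases of the endosome then degrade the invariant chain until H2-DM exchanges its last fragment for a peptide, a step that H2-O restrains. Ciita, which binds no DNA itself, is recruited to a complex of RFX, NF-Y and CREB factors at class II promoters and sets the level of transcription, and interferon-gamma is its best known inducer. Microglia carry little class II at rest, whereas dendritic cells, B cells and border macrophages carry more.

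RFX binds the X box of a class II promoter and NF-Y binds the Y box, and these elements bear on genes that share Ciita. RefSeq promoter windows (300 bases, GRCm38.p6) were at hand for 7 of the 10 genes, and none was at hand for H2-Ab1, Cd74 and Ciita. The letters TGATTGG for the Y box and AACNGATG for the core of the X box were searched on both strands. They were settled on with the sequences in view, so the matches are a description. Shown here are the 150 bases before the start of the 6 genes with a Y box, 5′ to 3′ in the direction of the gene, with matches to either motif in capitals.

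H2-Aa, chr17:34287824-34287973, minus strand: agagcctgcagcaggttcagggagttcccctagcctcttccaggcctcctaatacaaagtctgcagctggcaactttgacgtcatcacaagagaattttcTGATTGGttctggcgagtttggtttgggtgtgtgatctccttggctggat
H2-Eb1, chr17:34305717-34305866, plus strand: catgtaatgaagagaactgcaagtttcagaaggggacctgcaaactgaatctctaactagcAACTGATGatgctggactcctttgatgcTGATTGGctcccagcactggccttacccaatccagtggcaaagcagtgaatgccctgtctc
H2-DMb1, chr17:34153041-34153190, plus strand: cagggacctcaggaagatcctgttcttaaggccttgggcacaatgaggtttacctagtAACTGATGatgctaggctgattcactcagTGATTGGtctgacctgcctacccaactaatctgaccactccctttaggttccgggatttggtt
H2-DMb2, chr17:34145099-34145248, plus strand: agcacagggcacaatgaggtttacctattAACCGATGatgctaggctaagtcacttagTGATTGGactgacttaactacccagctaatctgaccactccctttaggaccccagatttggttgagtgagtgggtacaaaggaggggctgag
H2-Oa, chr17:34092229-34092378, plus strand: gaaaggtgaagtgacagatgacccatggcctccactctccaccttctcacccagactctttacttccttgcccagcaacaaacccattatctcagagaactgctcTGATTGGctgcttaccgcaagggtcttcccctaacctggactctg
H2-Ob, chr17:34238755-34238904, plus strand: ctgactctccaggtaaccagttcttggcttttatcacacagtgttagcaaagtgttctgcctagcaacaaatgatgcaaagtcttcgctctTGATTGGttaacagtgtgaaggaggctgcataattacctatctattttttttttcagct

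The Y box was present once on the gene's own strand in each of these 6 genes. On either strand it was present in 7.82% of all 32851 promoter windows. It began 50 bases before the start in H2-Aa, 61 in H2-Eb1, 63 in H2-DMb1, 92 in H2-DMb2, 45 in H2-Oa and 59 in H2-Ob. The X core was present on the gene's own strand in H2-Eb1, H2-DMb1 and H2-DMb2. On either strand it was present in 2.32% of all windows. It began 28 bases before the Y box in H2-Eb1 and 29 in both H2-DMb1 and H2-DMb2. An X core followed by a Y box within 50 bases on one strand was present in 8 of the 32851 windows (0.0244%), which were those of H2-Eb1, H2-DMb1, H2-DMb2, H2-Eb2, H2-M10.4, G3bp2, BC051142 and Gm35444. The 2 windows of H2-DMa held neither motif. Only these letters were searched for, so a window without a match, as in H2-Aa, H2-Oa or H2-Ob, may hold an X box of other letters. The windows of H2-DMb1 and H2-DMb2 were 77% identical over 270 aligned positions.

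The libraries were of nearly equal depth. Total counts were 15158342 to 15746606 in NS and 15164123 to 15462396 in 4LPS, and the 10 class II genes together took 0.0859% to 0.106% of counts in NS and 0.103% to 0.148% in 4LPS. Values are given as CPM, which are counts scaled by TMM factors to a common library total, with the mean ± SD of n = 3 samples per group. The values of a group's samples are listed in the order of replicates 1, 2 and 3. CPM does not account for gene length, and levels are therefore compared between genes only in FPKM, which does. All 8 microglia markers listed were detected, at a summed level of 33290 to 35180 CPM in NS and 30980 to 31770 CPM in 4LPS, and Itgam, which encodes CD11b, had a mean of 2206 ± 153 CPM for NS and 2563 ± 53.1 CPM for 4LPS (edgeR adjusted p = 0.0740). Samples of a group differed in choroid plexus RNA, whose 7 markers summed to 6582, 5717 and 654 CPM for NS and to 2218, 1.97 and 532 CPM for 4LPS, and thus were lowest in NS replicate 3 and 4LPS replicate 2. In bulk RNA of this kind, more cells of a type and more RNA per cell cannot be told apart.

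The class II genes differed widely in level. In NS samples the order by mean FPKM was Cd74 (283), H2-Aa (147), H2-Ab1 (127), H2-DMa (101), H2-DMb1 (90.6), H2-Eb1 (71.7), H2-Oa (32.7), H2-Ob (20.4), H2-DMb2 (7.30) and Ciita (1.14). The ranges over samples of H2-Aa and H2-Ab1 overlapped, at 118 to 181 and 109 to 155 FPKM, and so these neighbours were not separated. All other neighbours in this order had ranges that did not overlap, although H2-DMa and H2-DMb1 came close at 96.9 to 104 and 88.0 to 95.9 FPKM. H2-DMb1 and H2-Eb1 came close as well, since H2-Eb1 ranged from 64.1 to 86.7 FPKM. In 4LPS samples the order was Cd74 (431), H2-Ab1 (208), H2-Aa (206), H2-Eb1 (110), H2-DMa (102), H2-DMb1 (93.8), H2-Oa (42.4), H2-Ob (24.7), H2-DMb2 (13.7) and Ciita (2.79). The ranges of H2-Ab1 and H2-Aa overlapped again, and so did those of H2-DMa (95.5 to 105 FPKM) and H2-DMb1 (90.4 to 96.0 FPKM). H2-Eb1 stood above both H2-DM chains in mean, but its range of 80.4 to 128 FPKM covered theirs.

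Of the 10 class II genes, 7 were higher in 4LPS than in NS, none was lower and 3 did not pass at an adjusted p under 0.05 (edgeR's quasi-likelihood test, Benjamini-Hochberg over 13151 genes). Across all genes tested, 9.95% were higher and 6.43% lower, which is 1308 and 845 genes. Without a factor for library composition these were 906 and 1711 genes, and 5 class II genes were higher. The genes that rose were Ciita, H2-DMb2, H2-Ab1, H2-Eb1, Cd74, H2-Oa and H2-Ob, and H2-Aa, H2-DMa and H2-DMb1 did not pass. The log2 fold change, written log2 FC from here on, is 4LPS over NS as edgeR estimates it, with its standard error (SE). Its median over the 10 genes was 0.64, against -0.02 over all genes tested. In 6 of the 10 genes every 4LPS sample lay above every NS sample, which held for 19.9% of all genes tested, while every 4LPS sample lay below every NS sample in 17.5% of all genes and in no class II gene. Leaving out a sample makes its group smaller, and it changed how many of all genes tested were higher, from 1308 with every sample kept. Without NS replicates 1 to 3 this number was 781, 982 and 1629. Without 4LPS replicates 1 to 3 it was 914, 935 and 853. Whether the class II genes changed beyond this was not tested. The number of class II genes that rose also depended on the sample left out. It was 3 when NS replicate 1, NS replicate 2 or 4LPS replicate 3 was left out and 4 when 4LPS replicate 1 was, but 8 when NS replicate 3 and 7 when 4LPS replicate 2 was left out.

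**Figure D1:**
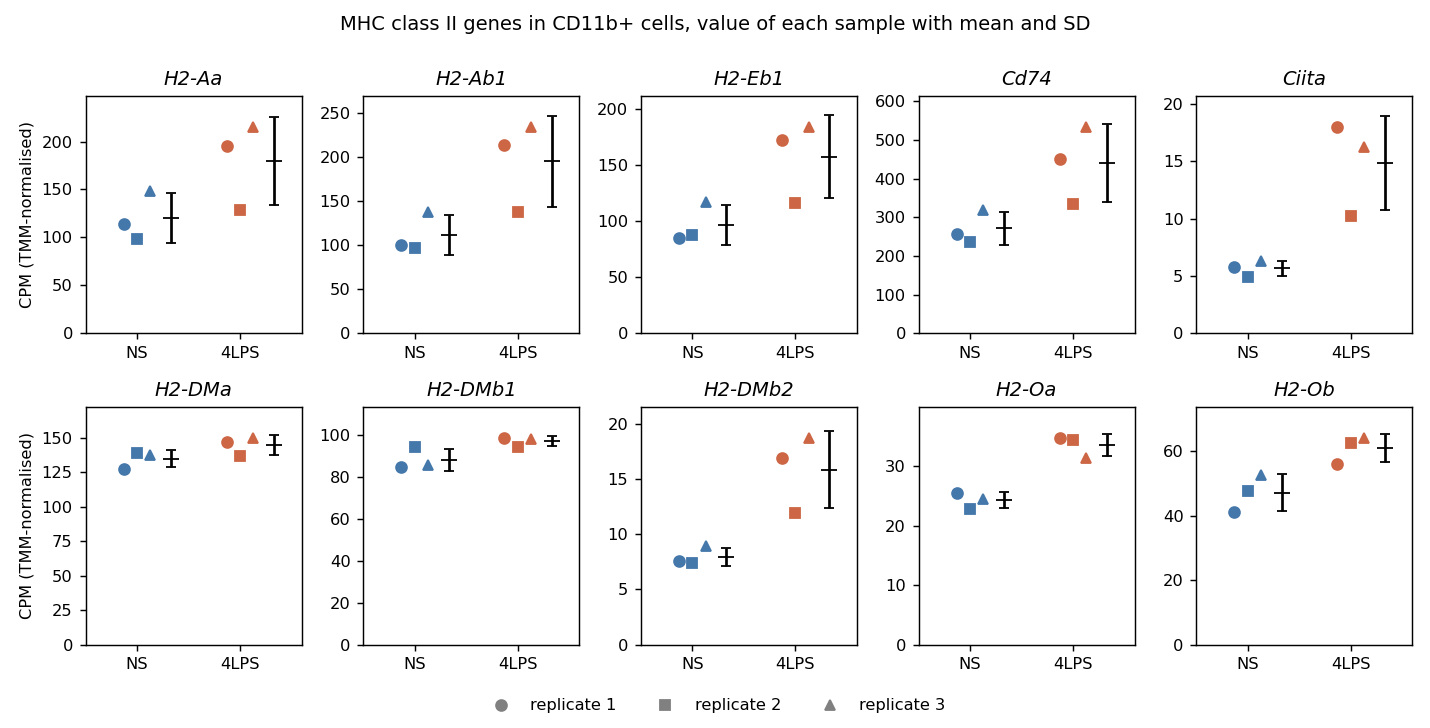
TMM-normalised CPM on the y axis of each panel, from 0, for the 10 class II genes in NS and 4LPS. Each symbol is one sample, its shape gives the replicate number, and the bar beside it is the mean ± SD of n = 3. In the top row 4LPS replicate 2 is the lowest 4LPS sample for every gene, and in H2-DMa and H2-DMb1 both groups lie close together.

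Ciita, the transactivator that switches class II genes on, showed the largest log2 FC of the 10 genes. Its level was 5.79, 4.90 and 6.26 CPM in the NS samples and 18.0, 10.3 and 16.3 CPM in the 4LPS samples. Every 4LPS sample was above every NS sample, with 4LPS replicate 2 nearest to them. The mean rose from 5.65 ± 0.69 CPM to 14.9 ± 4.07 CPM (log2 FC 1.39, SE 0.22, 95% interval 0.89 to 1.90, edgeR adjusted p = 0.00514). The counts behind these values were 78 to 101 in NS and 151 to 267 in 4LPS. Ciita passed whichever of the 6 samples was left out and in all 19 alternative settings. Its canonical transcript has 19 exons, and the gene spans 10297923 to 10347694 on the plus strand of chromosome 16 (GRCm39). The 8 class II genes other than Ciita and Cd74 lie together on chromosome 17, between 34311314 and 34535648. Ciita is transcribed from several promoters in different cell types, and counts per gene do not separate them.

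The chains of I-A and I-E and the invariant chain varied alike from sample to sample. H2-Ab1, the beta chain of I-A, was at 101, 96.8 and 137 CPM in the NS samples and at 214, 137 and 234 CPM in the 4LPS samples. Its highest NS sample, replicate 3, and its lowest 4LPS sample, replicate 2, had nearly the same level, with the NS sample slightly the higher, so the groups overlapped. H2-Ab1 rose with a log2 FC of 0.81 (SE 0.21, 95% interval 0.32 to 1.29, edgeR adjusted p = 0.0366). H2-Aa, which encodes the alpha chain that pairs with it, was at 114, 97.9 and 149 CPM in NS and at 195, 128 and 216 CPM in 4LPS. The groups overlapped, since NS replicate 3 lay above 4LPS replicate 2. H2-Aa had a log2 FC of 0.58 (SE 0.21, 95% interval 0.10 to 1.06) and did not pass (unadjusted p = 0.0247, edgeR adjusted p = 0.0971). It passed without NS replicate 3 (adjusted p = 0.0331) or 4LPS replicate 2 (0.0257), the 2 samples that overlapped. In FPKM, the ratio of H2-Ab1 to H2-Aa was 0.817, 0.919 and 0.857 in NS and 1.02, 0.992 and 1.01 in 4LPS, so that it was higher in every 4LPS sample.

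H2-Eb1 encodes the beta chain of I-E. C57BL mice make no I-E at the cell surface because their alpha chain gene is defective. The symbols for that alpha chain gene were looked up and were absent from the deposited table. H2-Eb1 was transcribed, at 85.1, 87.1 and 117 CPM in the NS samples and at 173, 116 and 184 CPM in the 4LPS samples. Here too NS replicate 3 and 4LPS replicate 2 were almost level, so the groups overlapped. H2-Eb1 rose with a log2 FC of 0.71 (SE 0.19, 95% interval 0.27 to 1.14, edgeR adjusted p = 0.0394), but not without a composition factor (adjusted p = 0.0520). In GENCODE the genes H2-Aa and H2-Eb1 lie on opposite strands and overlap by 2563 bases, whereas in RefSeq they do not overlap (0 bases). Neither the labels nor the methods say whether the counting used strand, so reads in that stretch could belong to either gene. H2-Aa and H2-Eb1 had whole counts in every sample, so their counts show no reads that RSEM divided between genes. H2-Eb2, a related beta chain gene next to H2-Eb1, had 0 counts in each NS sample and 7, 2 and 14 counts in 4LPS replicates 1 to 3. Set against a floor of 3 counts over the NS group, the 23 counts of the 4LPS group were 8.30-fold higher. That ratio takes no account of the spread among the 4LPS samples and is no lower bound. H2-Eb2 had too few counts for the filter on low counts and passed in the fit without that filter.

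Cd74, the invariant chain that fills the class II groove and guides the molecule to the endosome, was the most abundant of the 10 genes in FPKM. Its level was 257, 237 and 320 CPM in the NS samples and 451, 333 and 535 CPM in the 4LPS samples. Every 4LPS sample lay above every NS sample, but 4LPS replicate 2 only slightly above NS replicate 3. Cd74 rose from 271 ± 43.1 CPM to 439 ± 101 CPM (log2 FC 0.70, SE 0.17, 95% interval 0.29 to 1.10, edgeR adjusted p = 0.0325). The ratio of Cd74 to the sum of H2-Aa, H2-Ab1 and H2-Eb1 in FPKM was 0.846, 0.843 and 0.787 in NS and 0.774, 0.877 and 0.836 in 4LPS. These ratios overlapped between the groups and stayed between 0.774 and 0.877. Cd74 is encoded on chromosome 18 (GRCm39, 60936899 to 60945731, plus strand), with 9 exons in the canonical transcript.

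The calls for H2-Ab1, H2-Eb1 and Cd74 rested on the full set of samples. Without NS replicate 1 the adjusted p was 0.125, 0.133 and 0.113 for these genes in this order. It was 0.107, 0.112 and 0.0986 without NS replicate 2. It was 0.0876, 0.0938 and 0.0736 without 4LPS replicate 1, and 0.108, 0.116 and 0.0865 without 4LPS replicate 3. All 3 genes passed without NS replicate 3 (0.0145, 0.0143 and 0.0151) and without 4LPS replicate 2 (0.00702, 0.00840 and 0.00867). None of them passed when limma was run on log2(FPKM + 1), where the adjusted p was 0.0660, 0.0703 and 0.0621.

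**Figure D2:**
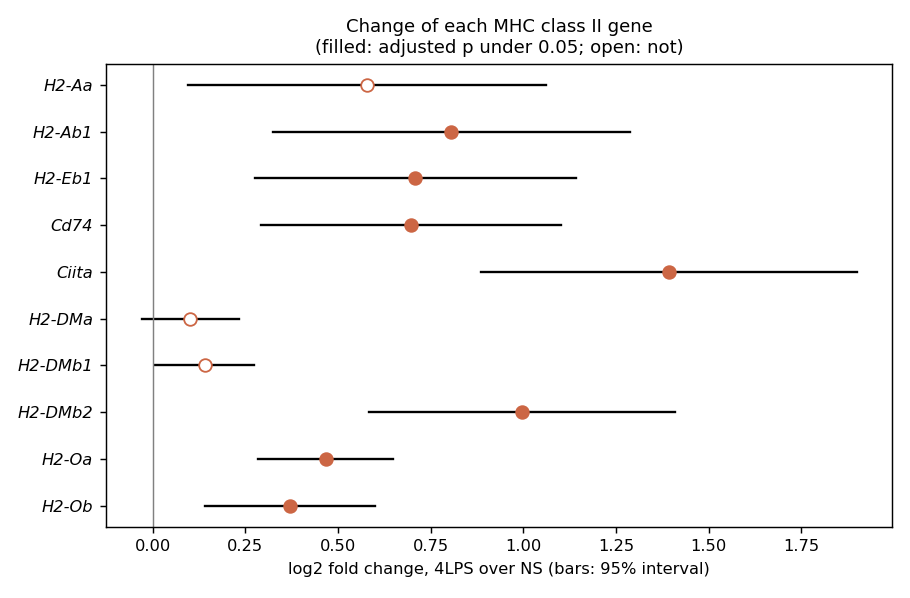
On the x axis, log2 FC (4LPS over NS) for each class II gene, with points for the edgeR estimates and bars for 95% intervals that carry no adjustment for multiple testing. Ciita (1.39) and H2-DMb2 (1.0) lie farthest to the right, and only the interval of H2-DMa (-0.03 to 0.23) reaches below 0.

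The editor H2-DM, which loads peptide onto class II, showed 2 genes close to their NS level and 1 that rose. H2-DMa, its alpha chain, was at 128, 139 and 138 CPM in the NS samples and at 147, 137 and 150 CPM in the 4LPS samples, so the groups overlapped. The log2 FC of H2-DMa was 0.10 (SE 0.06, 95% interval -0.03 to 0.23) and did not pass (edgeR adjusted p = 0.246). H2-DMb1, the main beta chain, was at 84.5, 93.9 and 85.5 CPM in NS and at 98.5, 94.2 and 98 CPM in 4LPS. Its samples did not overlap, but the lowest 4LPS sample and the highest NS sample were nearly equal. H2-DMb1 had a log2 FC of 0.14 (SE 0.06, 95% interval 0.01 to 0.27) and did not pass (unadjusted p = 0.0416, edgeR adjusted p = 0.133). In none of the 19 alternative settings did H2-DMa or H2-DMb1 pass. The upper ends of their intervals, 0.23 and 0.27, lie below the estimates of the other 8 genes. The intervals of H2-Aa (0.10 to 1.06) and H2-Ob (0.14 to 0.60) nevertheless overlap theirs. Whether the change differed between genes was not tested.

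H2-DMb2, a second beta chain gene next to H2-DMb1, varied over the samples as the classical chains did. Its level was 7.55, 7.42 and 8.93 CPM in the NS samples and 16.9, 12 and 18.8 CPM in the 4LPS samples. All 4LPS samples lay above all NS samples, and again NS replicate 3 was the highest in its group and 4LPS replicate 2 the lowest. H2-DMb2 rose from 7.97 ± 0.83 CPM to 15.9 ± 3.53 CPM (log2 FC 1.0, SE 0.18, 95% interval 0.58 to 1.41, edgeR adjusted p = 0.00929), and it passed with each sample left out. As a share of both beta chain genes in FPKM, H2-DMb2 made up 7.38%, 6.55% and 8.49% in NS and 13.2%, 10.2% and 14.5% in 4LPS. Every 4LPS share was above every NS share, while H2-DMb1 remained the main beta chain gene in all 6 samples. The canonical transcripts of the pair are 82.8% identical over 1461 aligned positions, and RSEM divided reads between them. Their expected counts were not whole one by one but summed to a whole number, within 0.011, in 6 of 6 samples, for example 1341.67 and 120.33 in NS replicate 1. The values of H2-DMb2 therefore depend on how that program assigned shared reads. The other 8 class II genes had whole counts in every sample.

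H2-Oa and H2-Ob, the chains of H2-O that holds H2-DM back and is best known from B cells, both rose by a small amount. H2-Oa was at 25.4, 22.8 and 24.5 CPM in the NS samples and at 34.7, 34.4 and 31.4 CPM in the 4LPS samples. The groups were well apart, and the spread within each was small. H2-Oa rose from 24.2 ± 1.32 CPM to 33.5 ± 1.84 CPM (log2 FC 0.47, SE 0.08, 95% interval 0.28 to 0.65, edgeR adjusted p = 0.00713), and it passed with each sample left out. H2-Ob was at 41.1, 47.7 and 52.8 CPM in NS and at 56.1, 62.7 and 64.2 CPM in 4LPS. The highest NS sample came close to the lowest 4LPS sample, but the groups did not overlap. H2-Ob rose with a log2 FC of 0.37 (SE 0.10, 95% interval 0.14 to 0.60, edgeR adjusted p = 0.0409). It missed the threshold when NS replicate 1 (adjusted p = 0.105), NS replicate 2 (0.0926), 4LPS replicate 2 (0.102) or 4LPS replicate 3 (0.108) was left out, and also with limma on log2(FPKM + 1) (0.0762) or without a composition factor (0.0715). The ratio of H2-DMa to H2-Oa in FPKM was 2.80, 3.41 and 3.12 in NS and 2.36, 2.22 and 2.64 in 4LPS, so that it was lower in every 4LPS sample. For such ratios an exact two-sided permutation test of 3 against 3 samples cannot give a p below 0.10, and none is given.

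The class II genes differed in how much they varied within a group. NS replicate 3 was the highest NS sample for 7 of the 10 genes and 4LPS replicate 2 the lowest 4LPS sample for 8, and 6 genes showed both, namely H2-Aa, H2-Ab1, H2-Eb1, Cd74, Ciita and H2-DMb2. From the lowest to the highest 4LPS sample these 6 genes spanned 0.65 (H2-DMb2) to 0.81 (Ciita) on the log2 scale. H2-DMa, H2-DMb1, H2-Oa and H2-Ob spanned 0.14, 0.06, 0.15 and 0.19. The mean log2 CPM of H2-Aa, H2-Ab1, H2-Eb1 and Cd74 was used as a profile over the 6 samples. Pearson's r with this profile was 0.96 for H2-DMb2 and 0.94 for Ciita, and 0.84, 0.64, 0.72 and 0.76 for H2-DMa, H2-DMb1, H2-Oa and H2-Ob. Of 10068 other genes with a mean of at least 5 CPM, Lilrb4a (r = 0.991), Lgals3 (0.988), Nnt (0.984), Cfp (0.982) and Tank (0.981) were the most alike. Of these, Lgals3 (log2 FC 0.91, edgeR adjusted p = 0.0462) and Cfp (0.99, adjusted p = 0.0197) rose, and the other 3 did not pass. Lilrb4a shared reads with Lilr4b, since its expected counts were not whole but summed with those of Lilr4b to a whole number, within 0.011, in 6 of 6 samples, so that its values depend on how RSEM divided them. Lilrb4a is an inhibitory receptor of myeloid cells, Lgals3 encodes galectin-3, Cfp encodes properdin, and Nnt and Tank encode a mitochondrial transhydrogenase and a TRAF adaptor. All these values of r describe 6 samples that include the difference between the groups.

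**Figure D3:**
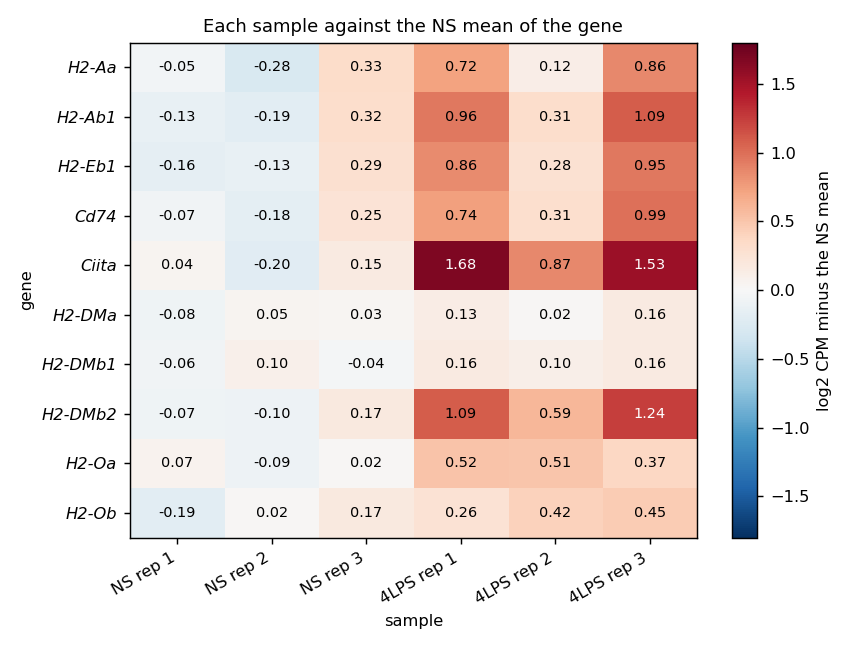
Log2 CPM of each class II gene in each sample minus the NS mean of that gene, as colour and number, with genes as rows and samples as columns. In H2-Aa, H2-Ab1, H2-Eb1, Cd74, Ciita and H2-DMb2 NS replicate 3 is above the other NS samples and 4LPS replicate 2 below the other 4LPS samples, and H2-DMa stays between -0.08 and 0.16.

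Markers of other cell types, not all of which carry class II, were read in the same samples. For the counts of markers that rose, the share over all genes tested was 9.95% higher and 6.43% lower. The 8 border macrophage markers summed to 287, 312 and 419 CPM in the NS samples and 523, 230 and 357 CPM in the 4LPS samples. NS replicate 3 was thus the highest NS sample and 4LPS replicate 2 the lowest 4LPS sample, as for the classical chains, but the sums overlapped between the groups, and 1 of the 8 markers rose. The 8 monocyte markers summed to 264 to 353 CPM in NS and 169 to 289 CPM in 4LPS, and 1 of 8, Ms4a4c, rose. That sum was set by Fn1, at 135 and 96.5 CPM in mean, and Ace, at 113 and 32.3 CPM, of which Ace was highest in the samples rich in choroid plexus RNA. Without both, a choice made after their values were seen, the other 6 markers summed to 46.0, 39.9 and 97.9 CPM for NS and to 138, 86.7 and 113 CPM for 4LPS. This sum was higher in mean in 4LPS, the groups overlapped, and NS replicate 3 was again the highest NS sample and 4LPS replicate 2 the lowest 4LPS sample. The 6 neutrophil markers, from cells that carry little class II, summed to 113, 114 and 445 CPM in NS and 695, 284 and 430 CPM in 4LPS, and none of the 6 passed. Here too NS replicate 3 was the highest NS sample and 4LPS replicate 2 the lowest 4LPS sample. This order was thus not particular to markers of cells that carry class II. Of 10 dendritic cell markers 5 rose, among them Xcr1 (4 to 5 counts per NS sample), Ccr7 (5 to 8) and Clec9a (9 to 17). Xcr1, Ccr7 and Clec9a entered the test through the 4LPS samples, where they were high. The sum of the 10 markers was 652 to 764 CPM in NS and 608 to 668 CPM in 4LPS. That sum was set by Fscn1, at 667 and 566 CPM in mean, and the defining markers Flt3 and Xcr1 had means of 2.56 and 0.27 CPM in NS and 8.44 and 1.31 CPM in 4LPS. The sum of 10 B cell markers was 30.4 to 34.8 CPM in NS and 69.1 to 74.0 CPM in 4LPS, nearly all of it from Cd22 and Cd79b. The defining B cell genes Cd79a, Ms4a1 and Pax5 had means of 0.18, 0.14 and 0.07 CPM in 4LPS and 0.17, 0.23 and 0.21 CPM in NS, which is near 0 in both groups. The 8 natural killer cell markers summed to 6.29 to 9.79 CPM in NS and 85.9 to 98.1 CPM in 4LPS, and the 7 T cell markers to 4.09 to 5.70 and 13.1 to 14.8 CPM. The part of any of these cells, or of choroid plexus RNA, in the class II changes was not tested.

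The factors that Ciita needs at the promoter showed no gene that passed. None of 10 genes of the class II enhanceosome passed in either direction, and their median log2 FC was -0.03, against -0.02 over all genes tested. Of all genes tested 9.95% were higher and 6.43% lower, and no call in a list of 10 genes is close to these shares. Rfx5, Rfxank and Rfxap, the subunits of RFX, had log2 FCs of 0.03, -0.03 and -0.24 (edgeR adjusted p = 0.754, 0.891 and 0.220), with 95% intervals of -0.11 to 0.18, -0.33 to 0.27 and -0.54 to 0.05. For Rfx5 the NS mean was 41.1 ± 2.11 CPM and the 4LPS mean 42.0 ± 0.73 CPM. Ep300, a histone acetyltransferase, had the highest of these estimates, at 0.17 (adjusted p = 0.13, and 0.0492 without NS replicate 2).

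Interferon-gamma signalling, which induces Ciita, was read at its receptor, kinase, target and ligand genes. Ifngr2, Jak2 and Ifngr1, which encode receptor chains and the kinase bound to them, rose with log2 FCs of 0.45, 0.28 and 0.22 (edgeR adjusted p = 0.00510, 0.0440 and 0.0272). Ifngr2 passed with each sample left out. Jak2 passed only without NS replicate 3 (0.00422) among these fits, with an adjusted p of 0.133, 0.116, 0.0767, 0.0804 and 0.101 without NS replicates 1 and 2 and 4LPS replicates 1, 2 and 3. Ifngr1 missed the threshold when NS replicate 1 (0.0936), NS replicate 2 (0.0775), 4LPS replicate 2 (0.0727) or 4LPS replicate 3 (0.0674) was left out. Without a composition factor, Ifngr1 (log2 FC 0.13, adjusted p = 0.0937) and Jak2 (0.19, adjusted p = 0.102) did not pass, nor did they in limma on log2(FPKM + 1) (0.0924 and 0.119), and Jak2 also missed it with upper-quartile factors (0.0533). Irf1, an interferon-gamma target that acts at a Ciita promoter, had a log2 FC of 0.07 (edgeR adjusted p = 0.554). Ifng, the gene of the cytokine itself, had 0, 3 and 1 counts in NS replicates 1 to 3 and 6, 7 and 7 counts in 4LPS replicates 1 to 3, too few for the filter.

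Antigen is prepared and the invariant chain degraded by enzymes of the endosome. Of 7 genes of endosomal processing 5 rose, Cst3 fell and Lgmn did not pass, with a median log2 FC of 0.47. The shares over all genes tested were 9.95% higher and 6.43% lower. Ifi30, the lysosomal thiol reductase that opens disulfide bonds of antigens, rose from 105 ± 10.6 CPM to 199 ± 29.7 CPM (log2 FC 0.92, SE 0.12, edgeR adjusted p = 0.00181). Ctss, the cathepsin that trims the invariant chain in dendritic cells and microglia, rose from 4797 ± 417 CPM to 6662 ± 174 CPM (log2 FC 0.47, edgeR adjusted p = 0.00926). Ctsl and Ctsb, further cysteine proteases, had log2 FCs of 0.75 and 0.55 (edgeR adjusted p = 4.7e-04 and 0.00403). These 4 genes passed with each sample left out. Ctsd, an aspartic protease, had a log2 FC of 0.35 (edgeR adjusted p = 0.0373), and it passed only without 4LPS replicate 1 (0.0487) among the fits that left out a sample. Its adjusted p was 0.0530, 0.0835 and 0.0619 without NS replicates 1 to 3, and 0.128 and 0.113 without 4LPS replicates 2 and 3. Ctsd also missed the threshold without a composition factor (0.0722), without a filter on low counts (0.0720) and in limma on log2(FPKM + 1) (0.0934). Cst3, which encodes the cathepsin inhibitor cystatin C, fell from a mean of 12430 ± 676 to 9477 ± 173 CPM (log2 FC -0.39, edgeR adjusted p = 0.0152). It did not pass without 4LPS replicates 1, 2 or 3 (0.0534, 0.0934 and 0.0698). In limma on log2(FPKM + 1) with no filter, Cst3 (0.618) and Ctss (0.241) did not pass. Ctsd and Cst3 were named after their values were seen.

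Among 8 genes of class II traffic and turnover Lamp1 rose, none fell and 7 did not pass, with a median log2 FC of 0.14. With 9.95% of all genes tested higher, 1 of 8 is near that share. In DESeq2 3 of these 8 genes rose and in limma-voom 2. Lamp1, a membrane protein of late endosomes and lysosomes, had a log2 FC of 0.42 (edgeR adjusted p = 0.00361) and passed with each sample left out. The values of Marchf1, a ubiquitin ligase that removes class II from the surface, were 190 ± 25.0 CPM in NS and 233 ± 10.5 CPM in 4LPS (log2 FC 0.30, edgeR adjusted p = 0.0654). Cd83, which opposes Marchf1, had an NS mean of 174 ± 54.6 CPM and a 4LPS mean of 250 ± 36.1 CPM (log2 FC 0.52, edgeR adjusted p = 0.118). Without NS replicate 3 Cd83 and Marchf1 passed (adjusted p = 0.00359 and 0.0276). Lamp2 did so as well (0.0169), so that 4 of the 8 genes rose in that fit.

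**Figure D4:**
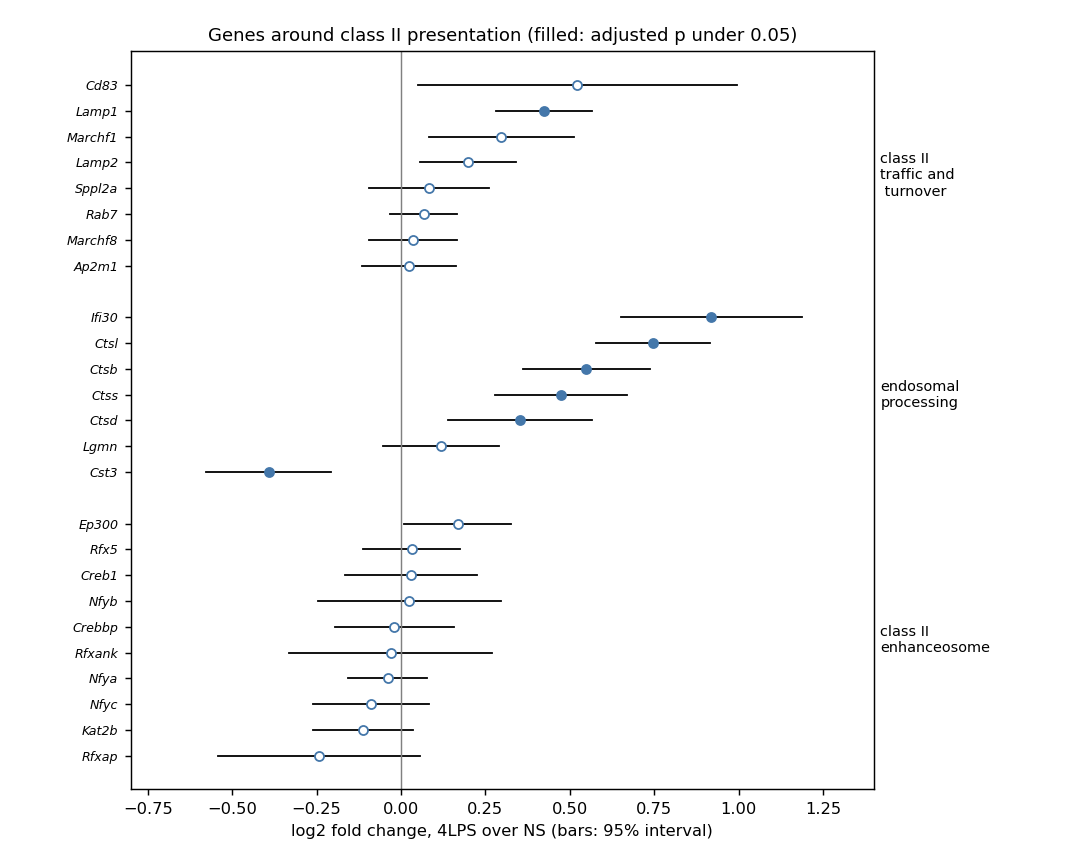
On the x axis, log2 FC (4LPS over NS) for genes around class II presentation, grouped by the lists of enhanceosome, endosomal processing, and traffic and turnover, with points for the edgeR estimates, filled where the adjusted p was under 0.05, and bars for 95% intervals. All 10 enhanceosome genes are open and lie around 0, and Ifi30 (0.92) is farthest to the right.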

How the data were processed

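RNA-seq was performed on CD11b+ cells from the cortex, in 3 NS and 3 4LPS samples, grouped by their labels. The authors filtered the reads, mapped them with HISAT2 2.0.4 and Bowtie2 2.2.5 (mm39 in the methods, mm39 and mm10 in the submitters' notes) and estimated expression with RSEM 1.2.8. The gene annotation was not given in the sources used here. Deposited by the authors were expected counts, FPKM, TPM, and a signal scaled by size factors. TPM, the signal and the authors' group means were not used. The expected counts (2.77% with a fraction) were rounded here, then tested in R 4.3.3 with edgeR 4.0.16 (TMM, filterByExpr, quasi-likelihood F-test, Benjamini-Hochberg over 13151 genes). The standard error was the absolute log2 FC over the square root of F. The analysis was tested on simulated data. The class II genes, the lists beside them and the markers were chosen with earlier results of these data known. Genes named are the 10 class II genes, list genes that passed (up to 4 per list by adjusted p), the 5 most alike genes and, chosen after their values were seen, Ctsd, Cst3, Rfx5, Rfxank, Rfxap, Ep300, Irf1, Ifng, Lgmn, Marchf1, Cd83, Lamp2, H2-Eb2 and single markers. Some listed genes are not reported here, nor is the count over the interferon-gamma list. Alternatives were RLE, upper-quartile and no factors, 2 other count filters, DESeq2 1.42.0, limma-voom and limma 3.58.1 on log2(FPKM + 1) or log2(FPKM + 0.1), a replicate block, a correction for gene length, and leaving out each sample. Replicate numbers were not taken to pair samples, since the labels name no shared litter or batch and the correlations of deviations between same-numbered samples were 0.473, -0.262 and 0.0663. Samples of a group were no repeated libraries, since the mean chi-square per gene between their counts was 5.90 or more. Gene coordinates are those of GENCODE on GRCm39, and promoter windows those of RefSeq on GRCm38.p6. Each sample held RNA of 2 mice, so p-values measure the spread between such pools.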

Additional observations from a re-analysis of the deposited data

How the results depend on the processing

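Of 190 values of the 10 class II genes under 19 alternatives, 190 kept the direction above 0 and 156 kept their side of the threshold. With RLE or upper-quartile factors, both other count filters, DESeq2, limma-voom and the length correction, each of the 10 genes kept its side. With no composition factor, which shifts the median of all genes to -0.11, H2-Eb1 (0.61) and H2-Ob (0.27) did not pass, and 906 genes were higher and 1711 lower. With limma on log2(FPKM + 1), 3 class II genes passed, H2-Ab1 (0.69), H2-Eb1 (0.59), Cd74 (0.59) and H2-Ob (0.27) did not, and 823 genes were higher and 1486 lower. On log2(FPKM + 0.1) these were 3, 0.70, 0.60, 0.59, 0.28, 813 and 1454. Without a filter on log2(FPKM + 1) they were 3, 0.69, 0.59, 0.59, 0.27, 818 and 1335, and 0 genes of the pathway lists were lower. With the replicate number as a block, H2-Aa passed (0.57), as it did with a block and the length correction (0.56), giving 8 class II genes higher in both fits. Equal numbers were not taken as pairs, and not every sample correlated best with its own number.

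Leaving out each sample, where a group of 2 is assumed to vary like the other, gave 781 to 1629 genes higher and 363 to 1215 lower, 3 to 8 class II genes higher, and 0 to 1 pathway genes lower. The log2 FC ranged from 0.44 to 0.78 for H2-Aa, 0.66 to 1.02 for H2-Ab1, 0.59 to 0.90 for H2-Eb1, 0.54 to 0.87 for Cd74 and 0.28 to 0.46 for H2-Ob. The causes of the other changes were not tested. Ciita, H2-DMb2 and H2-Oa passed in all 19 alternatives. Ciita and H2-DMb2 rest on the fewest counts, from 78 and 118 per sample.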
